A study of Homo sapiens with 12 samples.

Results

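The RNAs that 2 biotinylated microRNA (miRNA) duplexes captured in the same cell line were compared with each other. For each probe the difference was the log2 fold-change of the miR-199a-5p pull-down over its input minus that of the miR-424-3p pull-down over its input, so a positive value means stronger enrichment by the miR-199a-5p duplex. All 12 arrays of the series, 12 of 12, entered the comparison and were assigned by the sample titles. They formed 4 groups of 3: miR-199a-5p pull-down, miR-199a-5p input, miR-424-3p pull-down and miR-424-3p input. Every group was made from HEK293T, a human embryonic kidney line that carries the SV40 large T antigen, and every culture had received 200 pmol of one or the other synthetic duplex 24 h before harvest. The inputs were therefore transfected cells and not untreated ones, the 2 duplexes were tested in a single cell line, and no group without a duplex was analysed here. Pull-down RNA was eluted from streptavidin beads and read on Illumina bead arrays beside the input RNA.

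A miRNA guides an Argonaute protein to mRNAs, most often through pairing of its seed, bases 2 to 8, although pairing through the centre of the miRNA is also known. The Argonaute protein recruits GW182 (TNRC6) proteins, which bring in the CCR4-NOT deadenylase and decapping enzymes and so lower translation and stability of the bound mRNA. miR-199a-5p and miR-424-3p come from opposite arms of their unrelated precursors, and miR-424-3p is the partner strand of a member of the miR-16 family.

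The mature sequences of the miRNAs that the 2 duplexes were named for are shown, with the seed in capitals and each written 5′ to 3′ (RefSeq, GRCh38.p14). The labels name miR-199a-5p and its sequence was taken on that basis, although a supplementary legend of the study writes miR-199b-5p in its place.
miR-199a-5p: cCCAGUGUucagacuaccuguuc
miR-424-3p: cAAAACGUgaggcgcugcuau
miR-199a-5p is encoded by both MIR199A2 at chr1:172144592-172144614 and MIR199A1 at chr19:10817469-10817491, both on the minus strand. miR-424-3p is encoded by MIR424 at chrX:134546644-134546664, also on the minus strand. A seed site for miR-199a-5p in an mRNA reads ACACUGG and one for miR-424-3p reads ACGUUUU. The longest run that the 2 mature miRNAs shared was 3 bases (gug). Their GC content was 52.2% for miR-199a-5p and 52.4% for miR-424-3p, but the miR-199a-5p seed held 4 G or C bases and the miR-424-3p seed 2. The opposite arms of the same precursors have seeds of their own, and the miR-424-5p seed was shared with 6 other miRNAs of the 2370 mature ones listed, among them miR-15a-5p and miR-16-5p.
miR-199a-3p: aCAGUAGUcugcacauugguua
miR-424-5p: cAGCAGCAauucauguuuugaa
Sites for these sequences in the captured transcripts were not examined here.

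The deposited values were normalized log2 signals of 15329 probes, whose median per array ran from 9.15 to 9.21. Correlation across probes was 0.983 to 0.994 between arrays of the same group, 0.977 to 0.995 between the inputs of the 2 miRNAs and 0.924 to 0.939 between their pull-downs. Of 8 markers of HEK293T cells, 7 were listed, with mean input signals of 8.57 to 13.84, against 1 of 9 fibroblast markers and 2 of 11 blood cell markers, with mean input signals of 7.96 to 9.09. Because arrays were normalized to each other, a value describes the share of an RNA in a sample and not the amount captured, and in bulk RNA fewer cells and less RNA per cell cannot be told apart. The authors' transformation compresses low signals, so differences of dim probes are understated.

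Called differences were common. Of 9647 genes, each represented by its brightest probe, 2018 (20.9%) were captured preferentially with miR-199a-5p and 1744 (18.1%) preferentially with miR-424-3p at a 5% false discovery rate in each tail (limma). At the level of probes these were 2877 (18.8%) and 2757 (18%). Among called genes the median size was 0.68 log2 units for miR-199a-5p and 0.72 for miR-424-3p. A difference of at least 1 log2 unit was called for 332 genes (3.44%) with miR-199a-5p and for 435 (4.51%) with miR-424-3p, and one of at least 2 units for 10 and 18 genes. The 2 sets of calls ran on both sides of the diagonal in the plot of each gene's 2 enrichments.

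**Figure D1:**
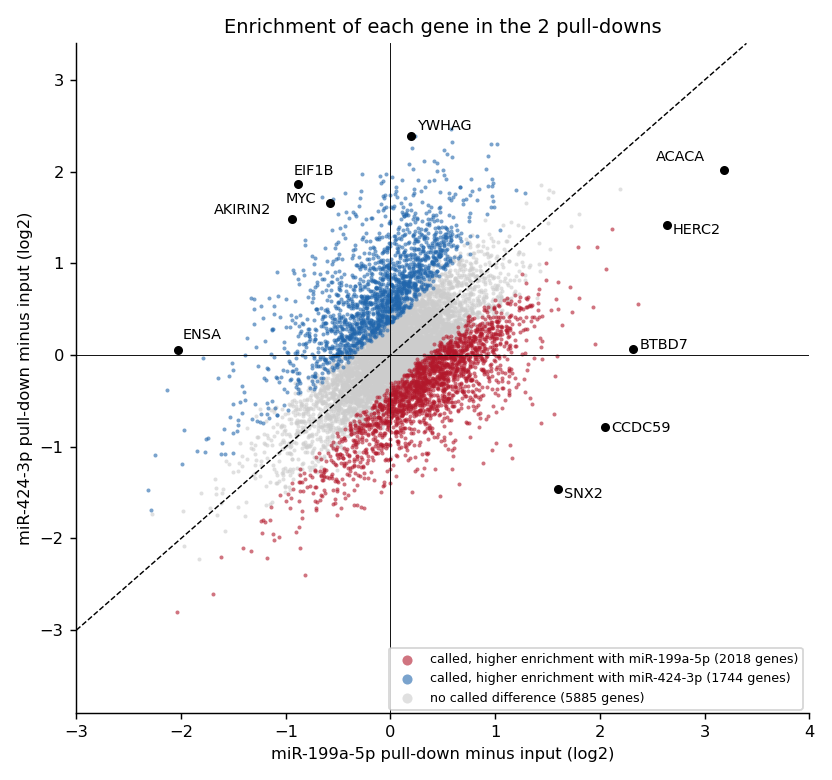
Log2 fold-change of pull-down over input for 9647 genes, with miR-199a-5p on the x axis and miR-424-3p on the y axis; the dashed line marks equal enrichment. Red points are the 2018 genes called higher with miR-199a-5p, blue points the 1744 called higher with miR-424-3p, and SNX2 (1.60 and -1.46) and EIF1B (-0.88 and 1.86) lie far off the line on opposite sides.

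A difference can arise from enrichment with one miRNA, from depletion with the other, or from both. Depletion here means a lower share of the RNA in the pull-down than in the input. Of the 2018 miR-199a-5p calls, 727 (36.0%) were enriched in that pull-down with no call for miR-424-3p, 601 (29.8%) were depleted in the miR-424-3p pull-down with no call for miR-199a-5p, and 318 (15.8%) were enriched with the first and depleted with the second. A further 127 (6.29%) were enriched in both pull-downs and 197 (9.76%) depleted in both, to unequal extents. Of the 1744 miR-424-3p calls, 820 (47.0%) were enriched with miR-424-3p with no call for miR-199a-5p, 282 (16.2%) were depleted with miR-199a-5p with no call for miR-424-3p, and 266 (15.3%) went in opposite directions. Those enriched in both numbered 292 (16.7%) and those depleted in both 60 (3.44%). The pull-down named by the call was itself above its input for 1172 genes (58.1%) on the miR-199a-5p side and for 1378 (79.0%) on the miR-424-3p side, where over all genes 2889 (29.9%) were enriched with the first miRNA and 2926 (30.3%) with the second. Both enrichments are parts of the difference that chose these genes, so shares above those of all genes follow from the choice. The inequality of the 58.1% and 79.0% was not tested.

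Differences between the inputs were rarely called. The pull-downs set directly against each other were called in the same direction for 1917 (95.0%) of the miR-199a-5p calls and 1706 (97.8%) of the miR-424-3p calls, beside 29.4% and 26.4% of all genes called higher and lower in that comparison. The difference contains the comparison of the pull-downs, so this agreement was largely built in and is only a description. The inputs were called different for 1 gene in each direction (0.0104% each). RTN4, a reticulon of the endoplasmic reticulum, was lower in the miR-199a-5p inputs, at 11.26, 11.23 and 11.43, against 12.20, 12.27 and 12.09 in the miR-424-3p inputs (adjusted p = 0.000496). Its pull-downs gave 11.63, 11.57 and 11.56 with miR-199a-5p and 11.99, 12.07 and 12.11 with miR-424-3p, so the called difference of 0.41 ran against the order of the captured RNA. SCAMP1, a secretory carrier membrane protein, was higher in the miR-199a-5p inputs by 0.92 (adjusted p = 0.0107), and its difference of -0.61 likewise had the opposite sign to that between the pull-downs (0.31). A second RTN4 probe and 2 further SCAMP1 probes had differences of 0.08, -0.17 and -0.25 without a call. At the level of probes 1 was called higher and 2 lower between the inputs (0.00652% and 0.013%), the third of them without a gene name. The inputs made up over 50% of the difference, in its own direction, for 77 miR-199a-5p calls and 28 miR-424-3p calls. Their median share was 4.37% and 0.314%. This share is signed, so inputs that add to a difference and inputs that oppose it offset each other in the median. DCP2, whose inputs opposed its difference, had a share of -77.5%.

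**Figure D2:**
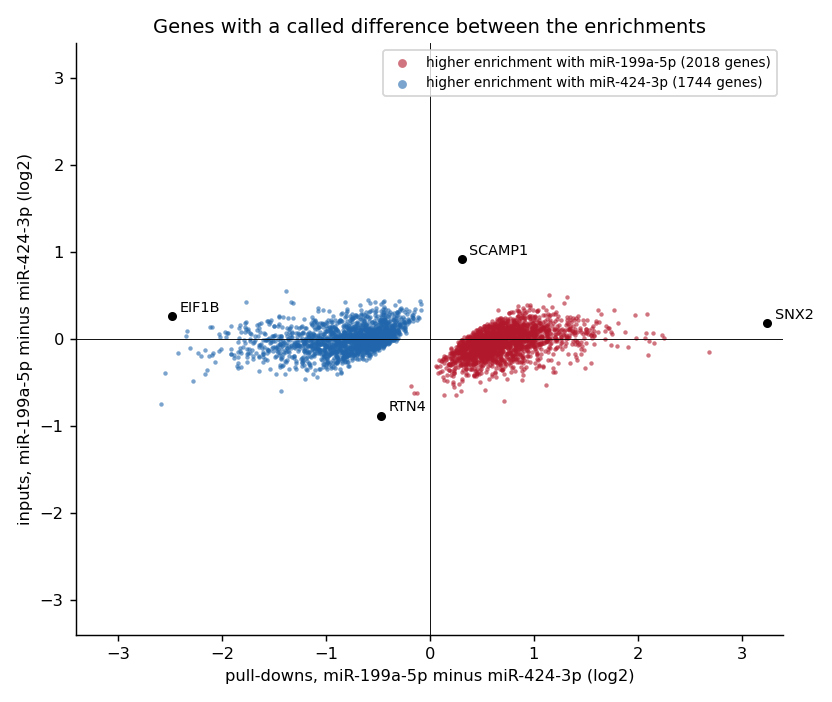
Genes with a called difference, with the difference between the pull-downs on the x axis and that between the inputs on the y axis (miR-199a-5p minus miR-424-3p, log2, same range on both axes). The points spread along the x axis, and RTN4 (-0.88) and SCAMP1 (0.92) are the 2 genes whose inputs were called different.

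The genes captured preferentially with miR-199a-5p were led by SNX2, a sorting nexin that returns cargo from endosomes to the Golgi. It gave 12.49, 12.55 and 12.75 in the miR-199a-5p pull-downs, against 10.88, 11.10 and 11.01 in their inputs. In the miR-424-3p pull-downs it gave 9.36, 9.22 and 9.48, against 10.51, 10.94 and 10.98 in theirs. The pull-downs thus lay on either side of overlapping inputs, with a difference of 3.06 ± 0.18 (SE; adjusted p = 2.3e-07). NSL1, a subunit of the MIS12 kinetochore complex, had the same shape: 13.36, 12.75 and 12.59 in the miR-199a-5p pull-downs, against 11.79, 11.69 and 11.74 in their inputs. Its miR-424-3p pull-downs were at 10.76, 10.87 and 10.77, against 11.90, 11.95 and 11.91 in their inputs, for a difference of 2.28 ± 0.21. A second NSL1 probe had a difference of 0.04 with no call. DNAJC12, a J-domain co-chaperone of aromatic amino acid hydroxylases, gave 11.42, 11.48 and 10.91 in the miR-199a-5p pull-downs, against 10.02, 10.09 and 10.25 in their inputs. Its miR-424-3p pull-downs gave 9.26, 9.03 and 9.19, against 10.03, 10.20 and 10.20 in their inputs. The difference was 2.13 ± 0.19, and the 3 other DNAJC12 probes gave 1.71, 1.87 and 2.30, each called.

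Depletion with miR-424-3p was the larger component for some of these genes. MYL6, a light chain of non-muscle myosin, gave 14.02, 13.97 and 14.25 in the miR-199a-5p pull-downs, against 13.36, 13.51 and 13.40 in their inputs. In the miR-424-3p pull-downs it was at 12.23, 11.79 and 11.78, against 13.13, 13.35 and 13.57 in their inputs. The gain of 0.66 with miR-199a-5p was thus smaller than the loss of 1.41 with miR-424-3p, and a second MYL6 probe differed by 2.10. RIDA, a deaminase of reactive enamines and imines, had log2 fold-changes of 0.47 for miR-199a-5p and -1.54 for miR-424-3p, but 1.32 and, without a call, -0.44 at its second probe. The mitochondrial ribosomal subunit MRPS11 (difference 2.00), the endosomal GTPase RAB9A (1.97) and SS18L2 (2.07) showed enrichment by miR-199a-5p beside depletion by miR-424-3p, of similar size, between 0.89 and 1.18 each way.

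Other genes were captured with miR-199a-5p and stayed near the input with miR-424-3p. BTBD7, a BTB-domain protein, gave 11.07, 11.21 and 11.15 in the miR-199a-5p pull-downs, against 8.87, 8.86 and 8.77 in their inputs. Its miR-424-3p pull-downs gave 8.85, 8.92 and 8.91, against 8.62, 8.92 and 8.93 in their inputs. The miR-199a-5p pull-downs stood more than 2 log2 units above the other 9 arrays, which overlapped, and the difference was 2.25 ± 0.13 (adjusted p = 2.3e-07), with 0.45 at a second BTBD7 probe. FBXW11, a substrate adaptor of the SCF ubiquitin ligase, had 1.45 for miR-199a-5p and -0.05 for miR-424-3p, whereas its second probe had 0.57 and a called depletion of -0.51. The mitochondrial aspartate-glutamate carrier SLC25A13 combined an enrichment of 1.57 with a depletion of 0.64, and CCDC59 one of 2.05 with a depletion of 0.79. PTPN12, a cytoplasmic tyrosine phosphatase, was enriched by both: its pull-downs gave 11.59, 11.66 and 11.22 with miR-199a-5p and 9.28, 9.31 and 9.62 with miR-424-3p. Its inputs were at 8.96, 9.13 and 9.29 for miR-199a-5p and 8.83, 8.94 and 8.77 for miR-424-3p, so the enrichments were 2.36 and 0.56 (difference 1.80 ± 0.18). A second PTPN12 probe had 1.64 for miR-199a-5p and, without a call, 0.20 for miR-424-3p. The ubiquitin ligase HERC2 (2.64 and 1.42) and SCAP, the escort of the sterol-regulated transcription factors (1.93 and 0.53), were also captured with both and more strongly with miR-199a-5p.

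Preferential capture with miR-424-3p was led by EIF1B, a homologue of the initiation factor that selects the start codon. It gave 10.81, 10.81 and 10.91 in the miR-199a-5p pull-downs, against 11.91, 11.69 and 11.57 in their inputs. In the miR-424-3p pull-downs it gave 13.46, 13.21 and 13.30, against 11.57, 11.43 and 11.38 in theirs. The difference was -2.74 ± 0.15 (adjusted p = 5.4e-08), with each pull-down on its own side of all 6 inputs. AKIRIN2, which brings proteasomes into the nucleus, gave 10.60, 10.78 and 10.69 in the miR-199a-5p pull-downs, against 11.59, 11.67 and 11.62 in their inputs. Its miR-424-3p pull-downs gave 13.01, 12.94 and 13.13, against 11.56, 11.60 and 11.46 in their inputs, for a difference of -2.43 ± 0.12. Opposite movements of about equal size also marked PSMB3, a subunit of the proteasome core (-0.93 for miR-199a-5p and 0.93 for miR-424-3p), EIF3F (-0.93 and 0.90), the ribosome biogenesis factor RBIS (-1.09 and 0.90) and RBM18 (-0.83 and 0.93).

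Among regulators of growth and protein turnover the same direction was found for MYC, MAP1LC3B and YWHAG. The transcription factor MYC gave 9.71, 9.96 and 9.93 in the miR-199a-5p pull-downs, against 10.38, 10.45 and 10.51 in their inputs. In the miR-424-3p pull-downs it gave 11.59, 12.14 and 12.17, against 10.28, 10.31 and 10.34 in theirs. The difference was -2.24 ± 0.19, and a second MYC probe gave -1.80. MAP1LC3B, the LC3 protein that is conjugated to autophagosome membranes, was at 9.97, 9.97 and 9.94 in the miR-199a-5p pull-downs, against 10.54, 10.27 and 10.37 in their inputs. Its miR-424-3p pull-downs were at 12.27, 12.23 and 12.30, against 10.48, 10.54 and 10.46 in their inputs (difference -2.20 ± 0.12). YWHAG, the gamma isoform of the 14-3-3 adaptors, differed in that its miR-199a-5p pull-downs (11.44, 11.56 and 11.58) were close to their inputs (11.20, 11.40 and 11.39). The miR-424-3p pull-downs gave 13.10, 13.22 and 13.55, against 10.82, 11.16 and 10.73 in their inputs, and the difference was -2.19 ± 0.18, with -2.47 at a second probe, which was depleted with miR-199a-5p (-0.36).

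ENSA, an inhibitor of the phosphatase PP2A in mitosis, had a difference that lay in depletion with miR-199a-5p. It gave 9.47, 10.11 and 9.98 in the miR-199a-5p pull-downs, against 11.87, 11.99 and 11.79 in their inputs. The miR-424-3p pull-downs (11.92, 11.99 and 11.71) overlapped their inputs (11.80, 12.03 and 11.65), so that the difference of -2.08 ± 0.21 came with a log2 fold-change of 0.05 for miR-424-3p. A second ENSA probe gave -1.97. In contrast, the double-stranded RNA-binding protein STAU1 (1.74), R3HDM1 (1.87), the isoprenoid enzyme IDI1 (1.89), the RNA-binding protein MEX3D (1.94) and the import factor NUTF2 (1.74) were enriched with miR-424-3p and had log2 fold-changes of at most 0.1 in size with miR-199a-5p. Second probes of STAU1 and R3HDM1 were also enriched with miR-424-3p (1.76 and 2.04), but for miR-199a-5p the STAU1 probe was depleted (-0.63) and the R3HDM1 probe enriched (0.45). CTNS, the lysosomal cystine transporter, was enriched with both, giving 10.84, 10.51 and 10.77 in the miR-199a-5p pull-downs, against 10.16, 10.14 and 10.08 in their inputs. Its miR-424-3p pull-downs gave 12.71, 12.78 and 12.70, against 10.40, 10.15 and 10.24 in their inputs, a difference of -1.89 ± 0.14, while a second CTNS probe was enriched with miR-424-3p (1.10) and not called for miR-199a-5p (0.0045). The RNA-binding protein ATXN2 (0.45 for miR-199a-5p and 2.09 for miR-424-3p) and the ubiquitin ligase CNOT4 (0.26 and 1.91) were further examples at their representative probes. The other CNOT4 probes were enriched with miR-424-3p (0.81 and 0.33) but had 0.14 without a call and a depletion of -0.32 for miR-199a-5p.

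**Figure D3:**
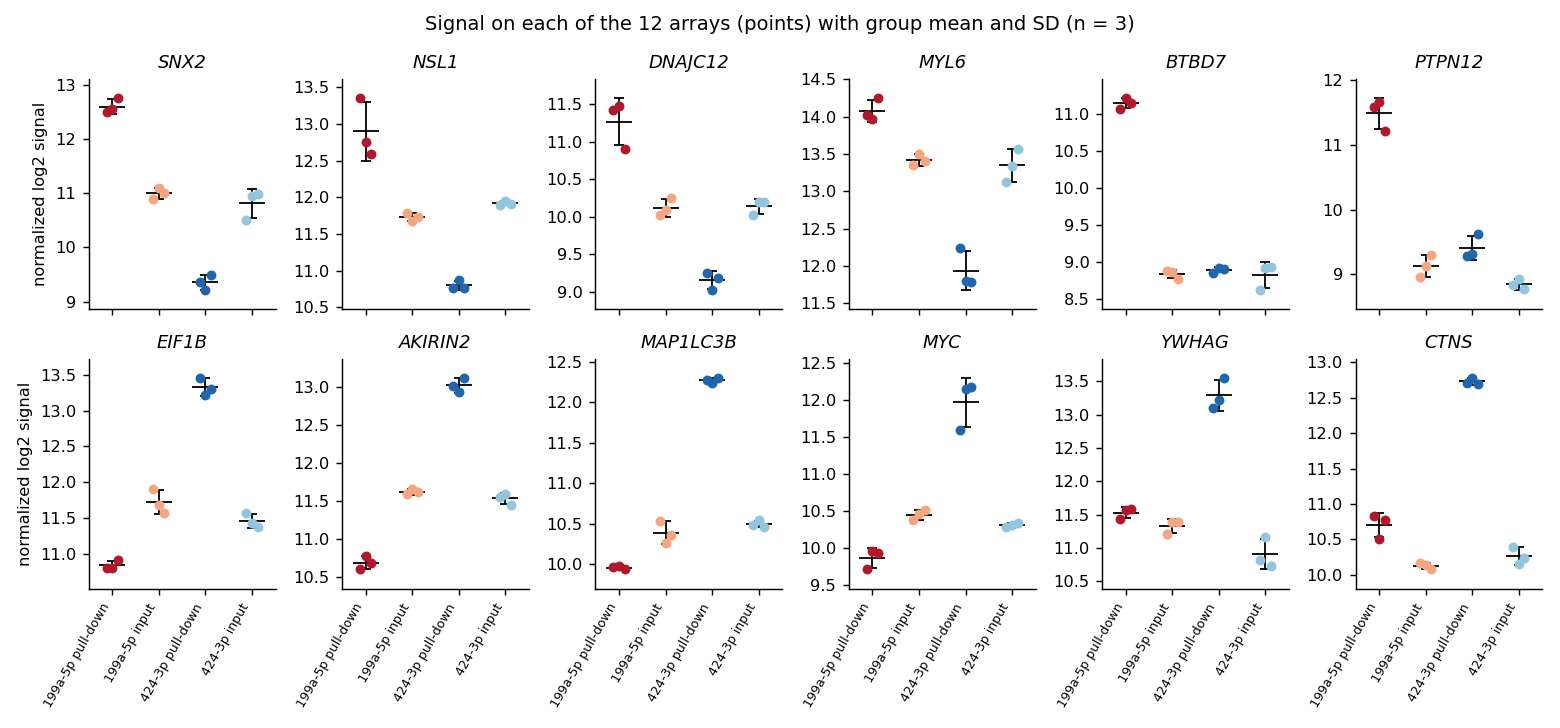
Normalized log2 signal of 12 genes on each of the 12 arrays (points), with the mean and SD of each group (n = 3); y axes differ between panels. In the upper row the miR-199a-5p pull-downs are the highest group for each gene, and in the lower row the miR-424-3p pull-downs are.

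**Figure D4:**
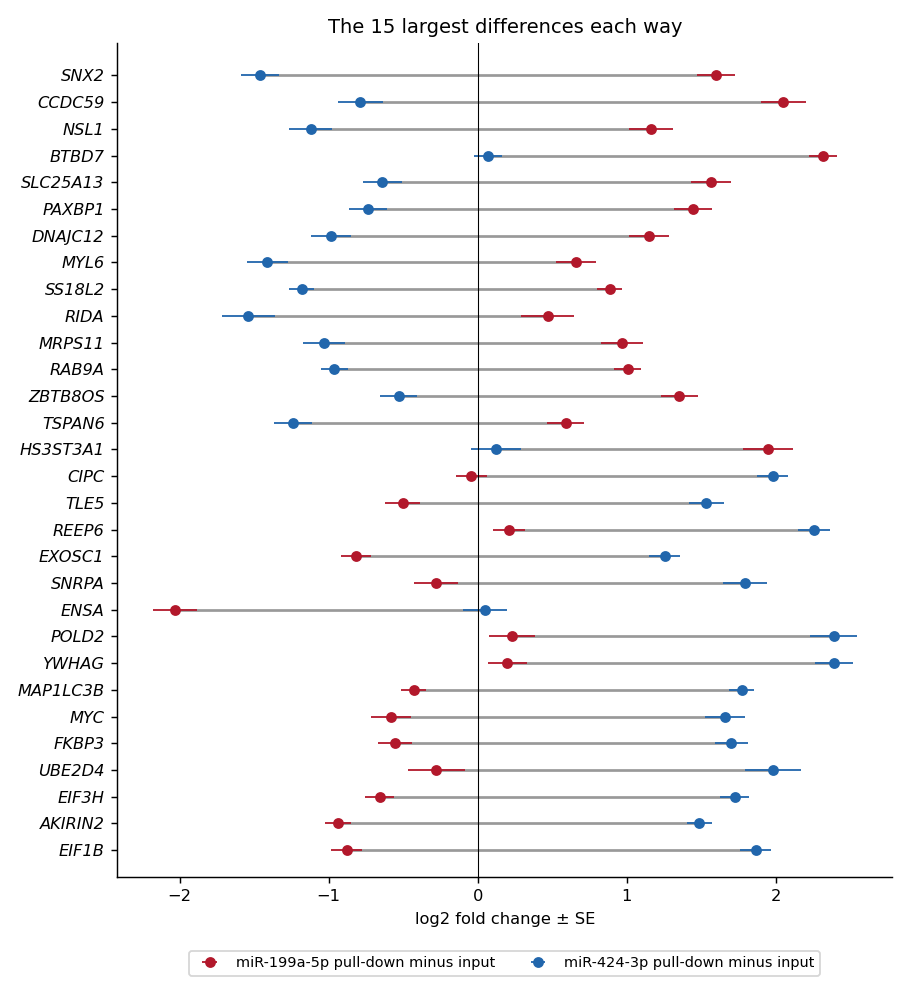
Log2 fold-changes over input with miR-199a-5p (red) and miR-424-3p (blue), with SE bars, for the 15 genes with the largest called differences in each direction. SNX2 is at the top (difference 3.06) and EIF1B at the bottom (-2.74), and ENSA is the gene of the lower 15 whose miR-424-3p point lies at 0.05.

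Other probes of the same genes gave a measure that had not been used to choose them. Of the 332 genes with a difference of at least 1 for miR-199a-5p, 101 had another probe; for 62 (61.4%) of these a further probe was called the same way, for 1 the opposite way and for 39 there was no further call. For miR-424-3p, 136 of 435 genes had another probe, of which 124 (91.2%) were called the same way, 0 the opposite way and 12 had no call. Over calls of any size the shares were lower: for miR-199a-5p 233 of 562 genes (41.5%) had a further probe called the same way, with 11 called the opposite way and 320 without a further call. For miR-424-3p these were 309 of 464 (66.6%), 1 and 154. Over the 2785 non-representative probes of all genes, 376 (13.5%) were called for miR-199a-5p and 543 (19.5%) for miR-424-3p. These last shares count probes, while those before count genes with any further probe called, so they are not on the same scale. NSL1 and PAXBP1 were leading miR-199a-5p genes whose other probes (0.04 for NSL1, 0.13 and 0.14 for PAXBP1) had no call. Calls were rarer among dim probes: with a mean signal under 8, 2.86% of probes were called for miR-199a-5p and 4.15% for miR-424-3p, against 26.6% and 23.6% at means of 10 to 12. Promoter GC content had close medians in all classes, with 65% for the genes with a difference of at least 1 for miR-199a-5p, 65.7% for those of miR-424-3p and 65.7% over all 7935 genes with a promoter sequence (RefSeq, GRCh38.p14).

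Gene lists were read by their counts beside those of all 9647 genes, where 20.9% were called for miR-199a-5p, 18.1% for miR-424-3p and the median difference was 0.04. Of 33 genes reported as miR-199a-5p targets, 8 (24.2%) were called for miR-199a-5p and 4 (12.1%) for miR-424-3p, with a median of 0.15. The share called for miR-199a-5p in the difference was near that of all genes. In the pull-downs themselves, 19 of the 33 were enriched with miR-199a-5p (29.9% of all genes) and 12 with miR-424-3p (30.3%). This inequality was not tested. The 8 included the GTPase RAB21 (difference 1.12), the endoplasmic reticulum chaperone HSPA5 (0.97) and the deacetylase SIRT1 (0.84). For RAB21 the pull-downs differed by 0.53 and the inputs, without a call, by -0.59, which was 52.6% of the difference. For MAP3K11, another of the 8 (0.54), the input share was 66.2%. SIRT1 gave 10.96, 10.89 and 10.69 in the miR-199a-5p pull-downs, against 9.97, 10.34 and 10.38 in their inputs, and 9.94, 9.64 and 9.93 in the miR-424-3p pull-downs, against 10.16, 9.92 and 10.11 in theirs. The opposite direction was found for SMAD4 (-1.10) and for HIF1A (-0.71), the oxygen-regulated transcription factor, whose representative probe was enriched with both miRNAs (0.98 for miR-199a-5p and 1.68 for miR-424-3p). The other HIF1A probes also differed towards miR-424-3p (-1.22 and -0.47), but for miR-199a-5p they had a depletion of -0.71 and -0.15 without a call. Within this list, FZD6 lost its call without any 1 of 7 arrays.

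Of 26 measured genes of the silencing machinery, 6 (23.1%) were called for miR-199a-5p and 5 (19.2%) for miR-424-3p (median 0.12), shares near those of all genes. CCR4-NOT subunits fell on both sides, with CNOT7, a deadenylase, at 0.92 and the scaffold CNOT1 at 0.89, but CNOT2 at -0.84 and CNOT3 at -1.51. CNOT7 had no call for miR-199a-5p (-0.05) and was depleted with miR-424-3p (-0.97). Its second probe was depleted with both (-1.26 and -1.81). CNOT2 was depleted with miR-199a-5p (-0.57) and had no call for miR-424-3p (0.27). CNOT3 gave 10.12, 10.25 and 10.02 in the miR-199a-5p pull-downs, against 10.39, 10.26 and 10.02 in their inputs, whereas it gave 12.05, 11.83 and 12.06 in the miR-424-3p pull-downs, against 10.82, 10.53 and 10.33 in theirs. The decapping enzyme DCP2 (0.65) and its cofactor DCP1A (-0.61) also had opposite signs, and the GW182 protein TNRC6A was enriched with both and more so with miR-424-3p (0.42 and 1.13). The calls of AGO1, MOV10 and XPO5 for miR-199a-5p were lost without any 1 of 6, 7 and 9 arrays, among which miR-424-3p pull-down replicate 2 (adjusted p of 0.0723, 0.0772 and 0.111) and miR-424-3p input replicate 3 (0.0765, 0.0717 and 0.064) were common to all.

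Enzymes that carry or attach covalent biotin were looked at because streptavidin was the capture reagent. Of 6 measured, 5 were called for miR-199a-5p and 0 for miR-424-3p (median 0.60), namely 4 of 5 carboxylases and the ligase that attaches biotin. ACACA, the cytosolic acetyl-CoA carboxylase, gave 13.22, 13.74 and 14.49 in the miR-199a-5p pull-downs, against 10.28, 10.71 and 10.90 in their inputs. In the miR-424-3p pull-downs it gave 12.14, 12.64 and 12.87, against 10.36, 10.59 and 10.65 in theirs. Both pull-downs were thus far above the inputs, and the 2 sets of pull-down arrays did not overlap. The difference of 1.16 ± 0.37 (adjusted p = 0.025) was lost without miR-424-3p pull-down replicate 1 (0.96, adjusted p = 0.0645), miR-424-3p input replicate 3 (1.10, 0.0562) or miR-199a-5p input replicate 1 (0.99, 0.0604), and a second probe gave 1.29. ACACB (0.91), the propionyl-CoA carboxylase subunit PCCA (0.63) and the pyruvate carboxylase PC (0.57) had the same direction. So did the biotin ligase HLCS, whose call was lost without any 1 of 10 arrays (adjusted p of 0.052 to 0.105). Of the 6, 4 were enriched with miR-199a-5p (29.9% of all genes) and only ACACA with miR-424-3p. PCCA had no call for miR-199a-5p (0.30) and was depleted with miR-424-3p (-0.33). The remaining carboxylase, MCCC1 (difference 0.19 without a call), was depleted with both (-0.41 and -0.60). The part of biotinylated proteins in the difference was not tested.

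Several lists, which were chosen with earlier results of these data known, held more calls on one side. Sorting nexins and retromer subunits, which sort cargo out of endosomes, had 11 of 27 genes called for miR-199a-5p and 3 for miR-424-3p (median 0.21, or 0.12 over the probes of each gene). Besides SNX2, these were led by SNX4 (1.63), VPS26C (1.31) and the retromer core subunit VPS35 (1.24). Of the 27 genes, 10 were enriched with miR-199a-5p (29.9% of all genes) and 11 depleted with miR-424-3p (25.7%). VPS29 (0.88) was called for miR-199a-5p although depleted with both (-0.66 for miR-199a-5p and -1.53 for miR-424-3p). Autophagy genes had 12 of 32 called for miR-199a-5p and 3 for miR-424-3p (median 0.34, or 0.26 over the probes of each gene). The largest were ATG12 (1.05), ATG4A, the protease that processes LC3-type proteins (1.03), and ATG101 of the initiating kinase complex (1.01). Of the 32, 15 were enriched with miR-199a-5p (29.9% of all genes) and 12 depleted with miR-424-3p (25.7%). GABARAPL2 (-1.14 for miR-199a-5p and -1.65 for miR-424-3p) and ATG3 (-0.50 and -1.12) were called for miR-199a-5p although depleted with both. MAP1LC3B, described above, was called for miR-424-3p at -2.20. Nuclear RNAs had 7 of 13 called for miR-199a-5p and 0 for miR-424-3p (median 0.59). RNU6-1, a U6 spliceosomal RNA, gave 12.87, 12.64 and 12.28 in the miR-199a-5p pull-downs, against 12.71, 12.73 and 12.71 in their inputs, and 11.79, 11.89 and 11.95 in the miR-424-3p pull-downs, against 12.94, 12.82 and 12.91 in theirs. The call thus came with a depletion of 1.01 with miR-424-3p, and of the 13 nuclear RNAs 3 were depleted with miR-199a-5p (20.1% of all genes) and 11 with miR-424-3p (25.7%). Near-identical copies of these small RNAs can share a probe.

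The network of MYC and its partner MAX had 0 of 9 genes called for miR-199a-5p and 5 for miR-424-3p (median -0.59, or -0.44 over the probes of each gene). Beside MYC these were the repressors MXD4 (-1.12), MNT (-0.80) and MXI1 (-0.71), and MAX (-0.59), whose call was lost without any 1 of 8 arrays (adjusted p of 0.0611 to 0.0945). MAX was depleted with miR-199a-5p (-0.90) and had no call for miR-424-3p (-0.31). The other MAX probes had differences of -0.05 and 0.05 without a call. MXD4 was enriched with both miRNAs, at 0.91 for miR-199a-5p and 2.03 for miR-424-3p. Canonical Wnt pathway genes had 3 of 31 called for miR-199a-5p and 14 for miR-424-3p (median -0.34), with the signal transducer DVL3 at -1.61, the beta-catenin cofactor BCL9 at -1.39 and the transcription factor TCF7L2 at -1.25. DVL3 gave 9.12, 8.99 and 9.17 in the miR-199a-5p pull-downs, against 10.15, 10.06 and 10.07 in their inputs, and 10.82, 10.39 and 10.45 in the miR-424-3p pull-downs, against 9.74, 10.06 and 10.03 in theirs. Immediate early genes, which respond within minutes to growth signals, had 1 of 27 called for miR-199a-5p and 9 for miR-424-3p (median -0.22). The largest of these were EGR1 (-1.51), IER5 (-1.19) and KLF2 (-1.14). Of the 27, 9 were enriched by miR-199a-5p (29.9% of all genes) and 15 by miR-424-3p (30.3%).

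**Figure D5:**
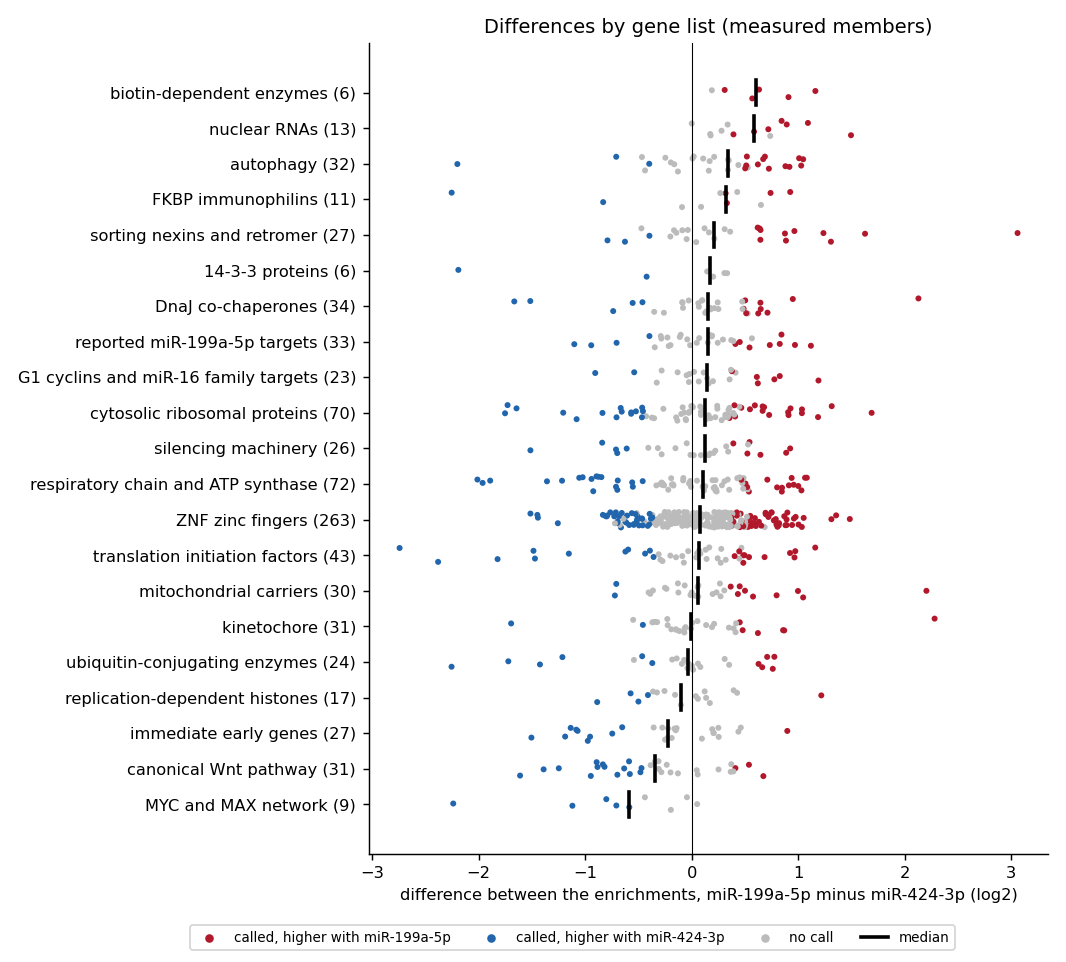
Difference between the enrichments (x axis, log2, miR-199a-5p minus miR-424-3p) of the measured members of 21 gene lists, 1 point per gene, with the number measured in brackets and the median as a black bar. Red points were called for miR-199a-5p, blue points for miR-424-3p and grey points for neither; the medians run from -0.59 for the MYC and MAX network to 0.60 for the biotin-dependent enzymes.

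The next families had shares of calls not far from those of all genes, and large differences of both signs among their members. Translation initiation factors had 11 of 43 genes called each way (median 0.07), although the leading ones, EIF1B, EIF3H (-2.38), EIF3F (-1.82) and EIF5 (-1.49), were captured more with miR-424-3p. The 2 other EIF5 probes had -0.39 and -0.30 without a call. Respiratory chain and ATP synthase genes had 16 of 72 called for miR-199a-5p and 18 for miR-424-3p (median 0.11), with ATP5MC2 (-2.01), COX7B (-1.96) and NDUFS3 (-1.89) at the miR-424-3p end. Most of this list lay below input in each capture, 46 genes for miR-199a-5p (20.1% of all genes) and 39 for miR-424-3p (25.7%). Of 70 cytosolic ribosomal proteins, 18 were called for miR-199a-5p and 15 for miR-424-3p (median 0.12). RPL12 gave 14.88, 14.39 and 14.47 in the miR-199a-5p pull-downs, against 14.39, 14.39 and 14.36 in their inputs, and 12.95, 12.76 and 12.78 in the miR-424-3p pull-downs, against 14.28, 14.28 and 14.40 in theirs (difference 1.69). RPL14 (-1.73) and RPS7 (-1.75) lay at the other end, and processed pseudogenes of ribosomal proteins may share these probes.

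The families that follow also held members that differed in size or direction. Over all genes, 20.9% were called for miR-199a-5p and 18.1% for miR-424-3p. FKBP3, a nuclear FK506-binding protein, had a difference of -2.25 and FKBP15 one of -0.83, while FKBP14 (0.93) and FKBP4 (0.74) were called for miR-199a-5p. Of 11 FKBP genes, 4 were called for miR-199a-5p and 2 for miR-424-3p. The calls of FKBP5 and FKBP11 were each lost without any 1 of 10 arrays. Of 6 14-3-3 genes, 0 were called for miR-199a-5p and 2 for miR-424-3p, YWHAG and YWHAH (-0.42), with the other 4 at 0.15 to 0.33 and without a call. DNAJC12 had its counterpart in DNAJB6 (-1.67, with -0.51 and no call at a second probe) among 34 J-domain genes, of which 9 were called for miR-199a-5p and 5 for miR-424-3p. Of 31 kinetochore genes, 6 were called for miR-199a-5p, led by NSL1, and 2 for miR-424-3p, led by PMF1 (-1.70), which like NSL1 belongs to the MIS12 complex. Ubiquitin-conjugating enzymes had 5 of 24 called for miR-199a-5p and 6 for miR-424-3p, of which UBE2D4 (-2.26) and UBE2N (-1.72) were the largest. Mitochondrial carriers had 9 of 30 (30%) called for miR-199a-5p and 2 (6.67%) for miR-424-3p. Among 23 G1 cyclins and targets of the miR-16 family, whose seed is that of miR-424-5p, 6 were called for miR-199a-5p, led by the cyclin CCNE1 (1.19), and 2 for miR-424-3p, led by the cytokinesis protein ANLN (-0.91), with a median of 0.15. ZNF zinc fingers had 52 of 263 genes called for miR-199a-5p and 36 for miR-424-3p (median 0.08), and replication-dependent histones 1 of 17 and 4 of 17 (median -0.10).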

How the data were processed

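RNA of 12 HEK293T samples was measured on Illumina arrays. The authors deposited log2 values made with lumi (the submitters' processing notes name version 2.2.1); the study's methods state that it adjusted background, stabilized the variance and normalized between arrays by robust splines. The selection of the 15329 probes is not stated in those sources. Another table, of signals, has 24 columns of per-sample values whose names match no label, and these were not used, so that normexp correction and a detection filter could not be run. Probes were named from the platform annotation (12432 with 1 symbol, 2 with several, 2895 with none).

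All 12 arrays were fitted together, with a mean per group, in limma 3.58.1 (lmFit, eBayes) in R 4.3.3, with 8 residual degrees of freedom. Each tail was tested with Benjamini-Hochberg adjustment over 15329 probes at 0.05, and inputs two-sided. Values after ± are SE. The study's supplements speak of independent replicates, but the labels do not, so p-values measure the spread between these arrays. The brightest probe stood for each gene. Named genes were the 15 largest differences each way, the 6 largest each way with opposite pull-downs, with one pull-down within 0.1 of its input or with both enriched, genes whose inputs differed, and the leading members of 25 lists. Members and lists were chosen with earlier results of these data known. Simulated data for the difference held 67, 67 and 66 changes of 0.5, 1 and 2 log2 units among 15329 probes. Of these, 16, 63 and 66 were recovered, and 6 of 151 calls were false. The real data had far more calls, 2877 probes for miR-199a-5p and 2757 for miR-424-3p. Adjusted p-values depend on the share of changed probes, so the recovered and false counts do not carry over to the real data.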

Additional observations from a re-analysis of the deposited data

Results flagged for a closer look

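Captures that moved in opposite directions were picked out, since the same contrast of pull-down over input had opposite signs for the 2 miRNAs and the difference itself passed the test. This was the case for 435 probes that miR-199a-5p enriched and miR-424-3p depleted, and for 423 probes that miR-199a-5p depleted and miR-424-3p enriched. Among the first, the differences with the largest movement on both sides were those of SNX2 (3.06), NSL1 (2.28), DNAJC12 (2.13), SS18L2 (2.07), MRPS11 (2.00) and RAB9A (1.97). Among the second they were those of EIF1B (-2.74), AKIRIN2 (-2.43), RBIS (-1.99), PSMB3 (-1.86), EIF3F (-1.82) and RBM18 (-1.76). Single arrays that stand apart from their group were not looked for, since each group had 3 arrays.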

How the results depend on the processing

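Both counts of calls (2877 probes for miR-199a-5p and 2757 for miR-424-3p) stayed within 1.5 times under every alternative but one: with only probes of mean signal 9 or more, 2102 were called for miR-199a-5p and 1831 for miR-424-3p, as fewer probes were tested. Scaling shifted the balance, to 2496 and 3038 with median scaling and 2572 and 2977 with cyclic loess. Leaving out single arrays gave 2367 to 2929 calls for miR-199a-5p and 2409 to 2785 for miR-424-3p. The replicate numbers were not taken to pair the arrays, as no label says what they share and not every same-numbered pair had deviations correlated over 0.1, although 10 of 18 did (range -0.10 to 0.51). An array correlated best with its own number in 23 of 36 cases, a hint from the data and not the design. With the replicate number as a block 3168 and 2954 probes were called. The pull-downs alone gave 3877 and 3700. Of 150 called named genes, 141 kept their call under each normalization, the weights, the block, the two-sided test, the mean filter where they passed it and the loss of any 1 array, with 0 changes of sign, and a required 1.5-fold change removed 15. These single-gene refits left out the pull-downs alone; between the pull-downs in the fit of all arrays, RTN4 (-0.47) and SCAMP1 (0.31) had the opposite call, and MAP3K11 and HLCS none. Background correction from raw signals and a filter on detection p-values were not run. The number of arrays, 3 per group, limits the precision.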
